A study of Mus musculus with 2 samples.

Results

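The 6 genes mt-Cytb, mt-Co1, mt-Co2, mt-Co3, mt-Atp6 and mt-Atp8 encode the mitochondrially made subunits of respiratory complex III, complex IV and the ATP synthase, complex V. They were chosen by symbol, which is the transcript name without its trailing number, and are 6 of the 45578 genes in the table. Each had 1 annotated transcript. Their ribosome footprints were counted in brain polysomes of 2 control mice at postnatal day 5. The mice carried the genotype Smn+/-; SMN2tg/0, so 1 mouse Smn copy was lost and a human SMN2 transgene was present, on the FVB strain. The labels describe both samples as biological replicates of 1 group. Both libraries came from whole brain, so no cell type is resolved, and fewer cells of a type cannot be told apart from less RNA per cell.

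Mitochondria translate their few mRNAs on ribosomes of their own, using mitochondrial tRNAs and rRNAs and a slightly altered genetic code. The proteins are hydrophobic membrane subunits, and each assembles with partners that are encoded in the nucleus, made in the cytosol and imported. The transcripts are cut from long precursors copied from both strands of the circular genome. Ribosome profiling counts the mRNA fragments that ribosomes shield from nuclease; how many of the fragments counted here were shielded by mitochondrial ribosomes was not tested.

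The library total was 1866831 footprints in replicate 1 and 5261878 in replicate 2. Intervals given with single values are 95% intervals, cover counting error only and, for PCR copies without molecular identifiers, may be too narrow. Listed markers of neurons took 0.622% of footprints in replicate 1 and 0.468% in replicate 2, and markers of astrocytes 0.102% and 0.103%. The red cell markers took 0.213% and 0.147% and the oligodendrocyte markers 0.0619% and 0.0784%. The choroid plexus markers took 0.0612% and 0.0318%, the largest difference among the marker sets when taken as a ratio. That fall was due to Ttr alone, which held most of the set's footprints. As shares of footprints, Folr1 and the sparsely counted Kcnj13 were higher in replicate 2. The endothelial markers took 0.0197% and 0.0152%, with Cldn5 lower in replicate 2 and Pecam1 and Flt1 higher. Markers also moved in opposite directions within the neuron, red cell and oligodendrocyte sets. The marker makeup of the libraries was thus not identical, but these sums do not show a shift of whole cell types. Its part in the results was not tested. The liver markers Alb and Apoa2 were at 0 in both libraries. Smn1 had 71 and 253 footprints, or 43.1 ± 7.11 CPM, the count scaled to a fixed library total (SD, n = 2).

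All 6 genes lie on the mitochondrial chromosome. In the RefSeq annotation of GRCm38.p6, the mouse build, mt-Co1 (ENSMUSG00000064351) spans MT:5328-6872 and mt-Co2 (ENSMUSG00000064354) spans MT:7013-7696. Further along lie mt-Atp8 (ENSMUSG00000064356) at MT:7766-7969, mt-Atp6 (ENSMUSG00000064357) at MT:7927-8607 and mt-Co3 (ENSMUSG00000064358) at MT:8607-9390. The last, mt-Cytb (ENSMUSG00000064370), spans MT:14145-15288. The reading frames of mt-Atp8 and mt-Atp6 share 43 nucleotides, and those of mt-Atp6 and mt-Co3 share 1. A fragment from the shared stretch can be counted on either gene. The 6 transcript lengths in the deposited table equalled those of RefSeq, and the table annotates no untranslated region for any of them.

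Together the 6 genes took 0.136% of replicate 1's footprints, with an exact Clopper-Pearson interval of 0.131 to 0.142, and 0.196% of those of replicate 2, with an interval of 0.192 to 0.199, a mean of 0.166% ± 0.0420 (SD, n = 2). These shares rest on 2544 and 10294 footprints. The intervals did not overlap, so replicate 2 gave the higher share beyond counting error. The complex IV genes took 0.0964% and 0.134%, mt-Cytb 0.0337% and 0.0498%, and the complex V genes 0.00616% and 0.0118%. Most of the signal thus lay on complex IV, and within it on mt-Co1.

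The catalytic core of cytochrome c oxidase, mt-Co1, supplied 51.4% of the footprints of the 6 genes in replicate 1 and 46.8% in replicate 2. The corresponding shares were 24.8% and 25.5% for mt-Cytb, 9.98% and 11.5% for mt-Co3 and 9.32% and 10.2% for mt-Co2. The complex V genes supplied the least, with 2.48% and 3.76% for mt-Atp6 and 2.04% and 2.25% for mt-Atp8. The order was the same in both libraries, from the counts as deposited. In replicate 1 the intervals of mt-Co3 and mt-Co2 overlapped, as did those of mt-Atp6 and mt-Atp8. Counts on nuclear copies of these genes, described below, were not added to these shares. The share of mt-Co1 was lower in replicate 2 (interval 45.9 to 47.8 against 49.4 to 53.4), and that of mt-Atp6 was higher (3.40 to 4.15 against 1.91 to 3.16).

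Levels between genes were compared per length, as CPM per kilobase of transcript, and are given in that unit. Among the 6 genes mt-Co1, the subunit that reduces oxygen, had the highest level. It held 1308 footprints in replicate 1, a level of 453 CPM per kilobase (exact Poisson interval 429 to 479), and 4820 in replicate 2, a level of 593 (576 to 609.9). The mean was 523 ± 98.6 (SD, n = 2). Among the 13317 coding genes whose counts averaged 10 or more, this level lay at percentile 99.5 in replicate 1 and 99.9 in replicate 2. Lengths of nuclear transcripts can include untranslated regions, which the members lack, so such percentiles may overstate the members.

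Cytochrome b, encoded by mt-Cytb, carries electrons from ubiquinol within complex III and is the one mitochondrially made subunit of that complex. It held 630 and 2620 footprints, at levels of 295 (272 to 319) and 435 (419 to 452), with a mean of 365 ± 99.2 (SD, n = 2). In both libraries it lay below mt-Co1, at 0.650 of its level in replicate 1 (interval 0.591 to 0.716) and 0.734 in replicate 2 (0.700 to 0.770).

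The complex IV subunit that accepts electrons from cytochrome c is encoded by mt-Co2. It held 237 footprints in replicate 1 and 1054 in replicate 2, at levels of 186 (163 to 211) and 293 (275 to 311), with a mean of 239 ± 75.8 (SD, n = 2). The third core subunit, mt-Co3, binds no metal and stabilises the core. Its counts were 254 and 1181 and its levels 174 (153 to 196) and 286 (270.2 to 303), with a mean of 229.9 ± 79.7 (SD, n = 2). The level of mt-Co3 was 0.935 of that of mt-Co2 in replicate 1 (0.780 to 1.12) and 0.978 in replicate 2 (0.899 to 1.06), so neither library separated these subunits. Against mt-Co1, mt-Co2 stood at 0.409 (0.355 to 0.470) and 0.494 (0.462 to 0.528), and mt-Co3 at 0.383 (0.333 to 0.438) and 0.483 (0.453 to 0.515).

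The ATP synthase genes had the lowest levels. The small membrane subunit mt-Atp8 held 52 and 232 footprints on a transcript of 204 nucleotides, at levels of 137 (102 to 179) and 216 (189 to 246), with a mean of 176 ± 56.3 (SD, n = 2). The subunit that lines the proton path, mt-Atp6, held 63 and 387 footprints on 681 nucleotides, at levels of 49.6 (38.1 to 63.4) and 108 (97.5 to 119), with a mean of 78.8 ± 41.3 (SD, n = 2). These genes are translated from 1 shared mRNA, yet as deposited mt-Atp8 stood at 2.76 times the level of mt-Atp6 in replicate 1 (interval 1.87 to 4.04) and 2.00 times in replicate 2 (1.69 to 2.36). Taking the length as the number of places where a footprint of 30 nucleotides can start moved the mean ratio from 2.38 to 2.65.

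**Figure D1:**
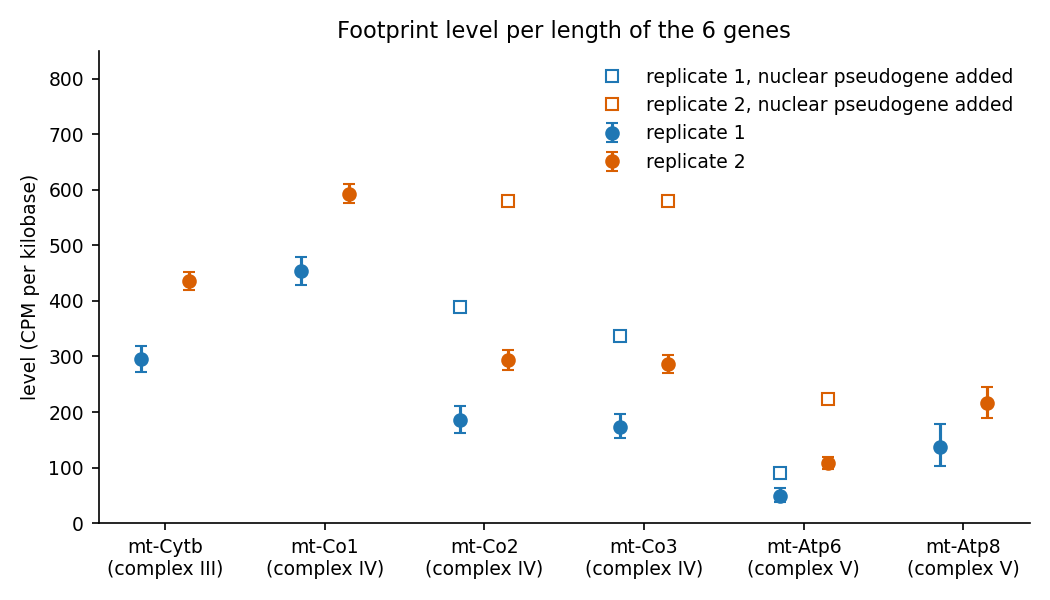
Level in CPM per kilobase of transcript for each gene, by replicate; filled points are the deposited counts with 95% exact Poisson intervals, and open squares add the counts of the paired nuclear pseudogene. As deposited, mt-Co1 was highest at 453 and 593 and mt-Atp6 lowest at 49.6 and 108; with the pseudogene added, mt-Co2 rose to 388 and 579 and mt-Co3 to 336 and 579.

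In order of mean level, the genes were mt-Co1, mt-Cytb, mt-Co2, mt-Co3, mt-Atp8 and mt-Atp6. The ranges over the libraries did not overlap between mt-Co1 and mt-Cytb or between mt-Atp8 and mt-Atp6. They overlapped between mt-Co2 and mt-Co3, and between mt-Co3 and mt-Atp8; the latter pair was separated by its intervals in replicate 2 but not in replicate 1. Among coding genes, the lower members lay at percentiles of 97.2 and 99.0 for mt-Co2, 96.9 and 99.0 for mt-Co3 and 95.7 and 98.3 for mt-Atp8. For mt-Atp6 the percentiles were 86.2 and 94.6. These percentiles may also be overstated, since lengths of nuclear transcripts can include untranslated regions.

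This order changed when counts on nuclear copies of mitochondrial DNA were added. Pieces of mitochondrial DNA inserted in chromosomes are annotated as pseudogenes, and a short fragment can match both copies. Of 7 such pseudogenes listed, 6 were in the table, all of the unprocessed class, and all held footprints. Gm10925, for which RefSeq gives mt-Atp6 as a synonym, is 3 nucleotides shorter than that gene and held 51 and 413 footprints against its 63 and 387. Gm28661, 3 nucleotides shorter than mt-Co2, held 259 and 1030 against 237 and 1054. Gm28437, 1 nucleotide shorter than mt-Co3, held 238 and 1207 against 254 and 1181. The matches of Gm28661 and Gm28437 rest on length alone, within 3 nucleotides; the length of Gm28661 is also that of mt-Atp6, which was already paired with Gm10925.

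Each mitochondrial gene and its pseudogene had nearly the same count in both libraries. The mitochondrial copy held 55.3% of the footprints of its pair for mt-Atp6 in replicate 1, with a Clopper-Pearson interval from 45.7 to 64.6, and 48.4% in replicate 2 (44.9 to 51.9). The values were 47.8% (43.3 to 52.3) and 50.6% (48.4 to 52.7) for mt-Co2, and 51.6% (47.1 to 56.1) and 49.5% (47.4 to 51.5) for mt-Co3. All 6 intervals contained an even split. What was done with fragments that match more than 1 place is not given in the sources used here.

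**Figure D2:**
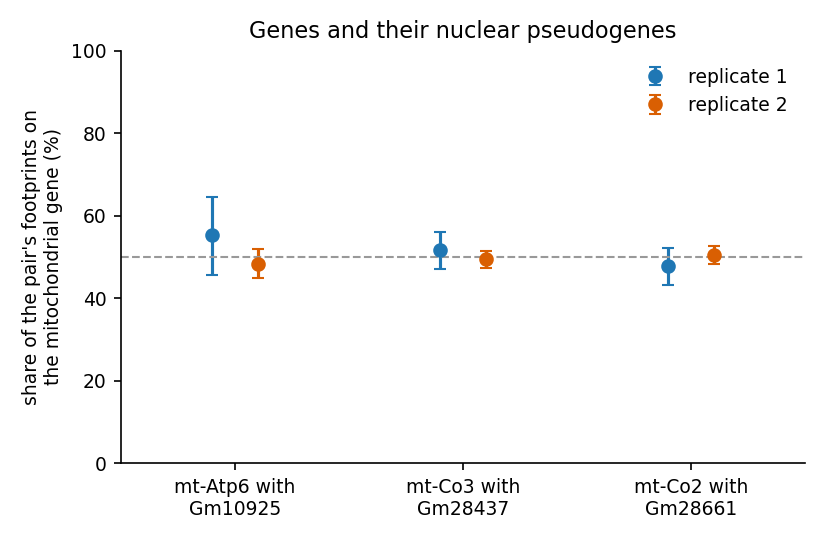
Share of the footprints of each pair that was counted on the mitochondrial gene, in percent, by replicate, with Clopper-Pearson 95% intervals; the dashed line marks 50%. The 6 shares run from 47.8% to 55.3%, and each interval crosses the line.

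Adding the pseudogene counts brought mt-Co2 and mt-Co3 closer to mt-Co1, and mt-Atp6 closer to mt-Atp8. The level of mt-Co2 became 388 in replicate 1 and 579 in replicate 2, that of mt-Co3 336 and 579, and that of mt-Atp6 89.7 and 223. Relative to mt-Co1, mt-Co2 then stood at 0.857 and 0.977 and mt-Co3 at 0.741 and 0.976. The ratio of mt-Co3 to mt-Co2 moved away from 1 in replicate 1, to 0.865. With these counts, mt-Co2 and mt-Co3 each lay above mt-Cytb in both libraries, which turned the order. The ratio of mt-Atp8 to mt-Atp6 became 1.52 in replicate 1 and 0.968 in replicate 2. The latter lies near 1 and no interval was computed for it, so the order of these genes in replicate 2 was not settled. No listed pseudogene was paired with mt-Atp8, mt-Cytb or mt-Co1, and Gm28438, with 31 and 126 footprints, and Gm28439, with 130 and 758, were paired with no member.

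One further listed pseudogene, Gm29216, had 283 and 1144 footprints on 492 nucleotides and equalled no member in length. If it were a copy of part of mt-Co1, a pairing assumed after its values were seen, the mean level of mt-Co1 would be 643 ± 129 (SD, n = 2). The mean ratios to mt-Co1 would then be 0.747 for mt-Co2 and 0.699 for mt-Co3. Gm13340, an unprocessed pseudogene named here after its values were seen, has the length of mt-Co1, 1545 nucleotides, and held 500 and 2144 footprints; its parent was not tested. Levels of mt-Co1 are therefore uncertain to this extent as well.

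Along the mitochondrial genome, the members were set beside the 7 subunits of complex I, the NADH dehydrogenase, which are made by the same ribosomes. The 7 genes took 0.0910% of footprints in replicate 1 and 0.145% in replicate 2, so the 6 members held the larger part of the 4243 and 17917 footprints on mitochondrial coding genes. Of the 13 genes, from the counts as deposited, mt-Co1 ranked highest in level in both libraries and mt-Nd3 lowest, at 41.6 and 67.2. The lowest member, mt-Atp6, ranked 12 in both. The highest complex I gene was mt-Nd6, the gene read from the other strand, at 333 and 366, which lay above mt-Cytb in replicate 1 and below it in replicate 2. The pseudogene Gm28438, of 345 nucleotides, is within 3 nucleotides of mt-Nd3, of 348. It held 31 and 126 footprints against 27 and 123 on mt-Nd3. No pseudogene counts were added to complex I genes, so whether mt-Nd3 would stay lowest was not tested.

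**Figure D3:**
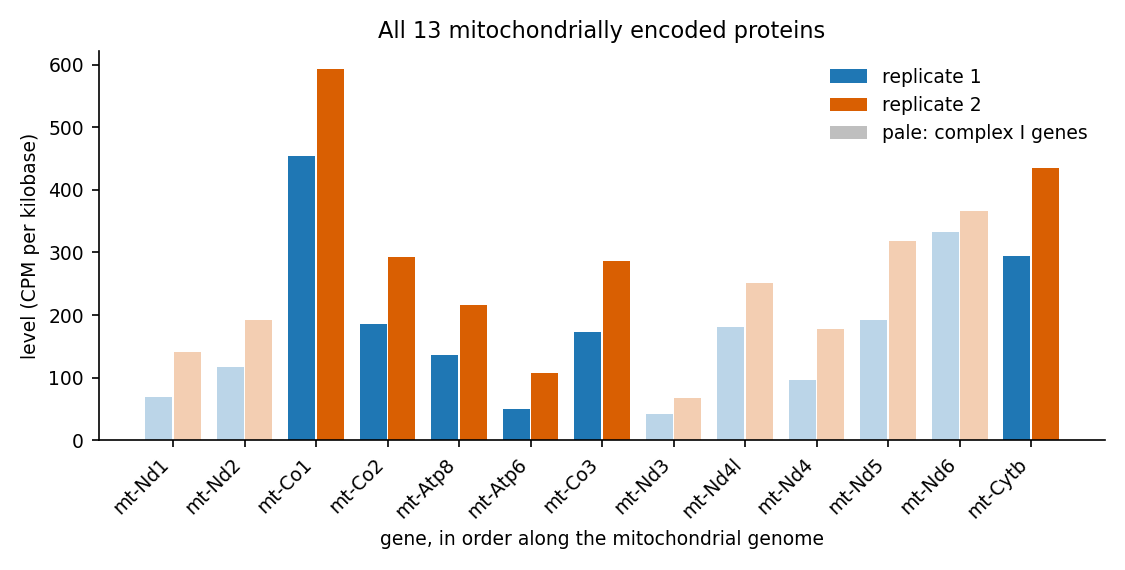
Level in CPM per kilobase, from the counts as deposited, for the 13 mitochondrially encoded proteins in genome order, by replicate; strong colours mark the 6 genes of complexes III, IV and V and pale colours complex I. The bars of mt-Co1, at 453 and 593, are the tallest, and those of mt-Nd3, at 41.6 and 67.2, the shortest.

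Nuclear-encoded partners of the same complexes were measured in the same libraries. A ratio of levels per transcript length can understate the nuclear genes, since their transcripts include untranslated regions, and many of them have processed pseudogenes that can share fragments. It can also overstate them, since counts of all transcripts of a gene were summed and divided by the length of 1. Counting coding transcripts alone raised the mean ratio of each complex, and dividing those counts by coding length lowered it. In complex III, mt-Cytb lay above 8 of 9 nuclear subunits in replicate 1 and above all 9 in replicate 2. The nuclear median was 188 and 171, and the level of mt-Cytb over it was 1.57 and 2.55. The highest nuclear gene was Uqcr11, a small subunit, at 305 ± 77.8, and the lowest was Uqcrq, another small subunit, at 137 ± 14.6 (SD, n = 2). Their transcript lengths were 445 and 1521 nucleotides. In CPM, without length, the order turned, at 136 ± 34.6 for Uqcr11 and 208 ± 22.2 for Uqcrq (SD, n = 2).

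In complex IV, mt-Co1 lay above 9 of 11 nuclear subunits in replicate 1 and above 10 in replicate 2, while mt-Co2 and mt-Co3 each lay above 1 in replicate 1 and above 8 in replicate 2. With the pseudogenes added, mt-Co2 lay above 9 and 10, and mt-Co3 above 4 and 10. The median of the 3 mitochondrial genes over the nuclear median was 0.497 and 1.27, so the libraries put it on different sides of 1. The nuclear genes ranged in mean level from 139 ± 13.2 for Cox7b to 751 ± 73.8 for Cox4i1 (SD, n = 2), a regulatory subunit. Adding the pseudogenes raised the mean ratio from 0.881 to 1.77. Counting coding transcripts alone gave 1.08, and dividing the counts of nuclear coding transcripts by their coding length gave 0.481.

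In complex V, mt-Atp6 as deposited lay below all 16 nuclear subunits in both libraries; with Gm10925 added it lay below all 16 in replicate 1 and above 6 in replicate 2. The other gene, mt-Atp8, lay below all 16 in replicate 1 and above 6 in replicate 2. The nuclear levels ranged from 131 ± 13.3 for Atp5l, a membrane subunit, to 765 ± 134 for Atp5g3, which encodes the c subunit of the proton ring (SD, n = 2). The ratio of medians was 0.269 and 0.533. With the pseudogene added its mean was 0.525 in place of 0.401. An exact sign-flip test of the log2 ratio of medians over the 2 libraries, two-sided, gave p = 0.5 for complexes III and V, the smallest that 2 libraries can give, and p = 1 for complex IV, so the design cannot pass a threshold of 0.05.

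**Figure D4:**
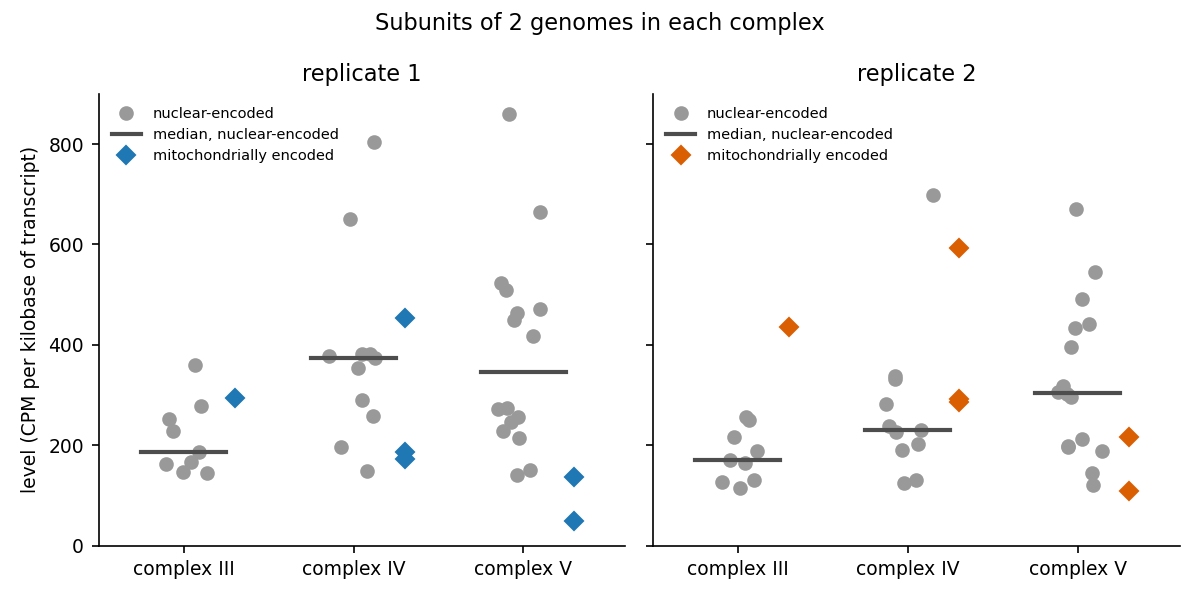
Level in CPM per kilobase of transcript for nuclear-encoded subunits (grey, with the median as a bar) and mitochondrially encoded subunits (coloured diamonds) of complexes III, IV and V, from the counts as deposited, with 1 panel for each replicate. The single mitochondrial gene of complex III lies above the nuclear median in both panels, and mt-Atp6 lies below all nuclear subunits of complex V in both.

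The libraries were then compared gene by gene. The exact binomial test on each gene's counts compares these libraries and not conditions, and covers counting noise alone. After scaling by the trimmed mean of M values (TMM), 2861 of 16427 tested genes (17.4%) had a Benjamini-Hochberg adjusted p under 0.05, and 5.95% were called and higher in replicate 2. Of the 6 members, all of which were tested, 5 were called and higher in replicate 2, and none was called and lower. All 6 had a mean count of at least 100, and among the 8060 genes with such counts 11.2% were called and higher. Their median log2 ratio of replicate 2 over replicate 1 was 0.53, beside 0.01 over all genes tested. TMM moved the log2 ratio of tested genes by a median of -0.12 from library totals, under which the members' median was 0.65 and that of all genes 0.13.

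The largest ratio among the members was that of mt-Atp6, at 0.99 on the log2 scale (adjusted p = 1.36e-06, exact binomial test with Benjamini-Hochberg adjustment). With Gm10925 added it was 1.18. The ratio was 0.59 for mt-Co3 (adjusted p = 2.03e-08 in the exact test), 0.53 for mt-Co2 (3.34e-06) and 0.43 for mt-Cytb (1.53e-10). The smallest was that of mt-Co1, at 0.26 (1.36e-07). For mt-Atp8 it was 0.53, and its adjusted p of 0.0772 in the exact test missed the threshold. Under library totals this p was 0.0171 and mt-Atp8 was called too, as were 11.5% of all genes in the direction of replicate 2. The edgeR exact test with a common dispersion, whose dispersion came from the very pair of libraries it compared, called none of the 6 and 0.067% of all genes at an adjusted p under 0.05; 1 of the 6 had an unadjusted p under 0.05.

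Other mitochondrial RNAs differed between the libraries as follows, beside 5.95% of all tested genes called and higher in replicate 2 and 11.5% called and lower. Of the 7 complex I genes, 4 were called and higher in replicate 2 and none was called and lower, with a median log2 ratio of 0.59. The largest was that of mt-Nd1 at 0.91, and mt-Nd6 had 0.01. Both mitochondrial rRNAs, the RNA cores of the mitochondrial ribosome, were called and lower in replicate 2, mt-Rnr1 at -0.61 with 495 and 999 fragments and mt-Rnr2 at -0.47 with 575 and 1273. Of 22 tRNAs, 12 were tested and 6 were called, all lower in replicate 2, with a median of -0.96. The rRNAs and tRNAs are not translated, so their fragments are not footprints of translation, and their part in the members' difference was not tested.

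The nuclear-encoded subunits were lower in replicate 2 where they were called. In complex IV, 10 of 11 were called and lower, with a median log2 ratio of -0.73, led by Cox6a1 at -1.07 and Cox8a at -1.04, both small accessory subunits. In complex III, 6 of 9 were called and lower with a median of -0.34, including the cytochrome Cyc1 at -0.65. In complex V, 10 of 16 were called and lower with a median of -0.37, including Atp5e at -0.73. None of these nuclear genes was called and higher by the exact binomial test, nor did any have an unadjusted p under 0.05 in that direction, and edgeR's exact test called none of them; with it, 6 genes of complex IV and 1 of complex V had an unadjusted p under 0.05. The share called and lower among all genes was 11.5%.

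**Figure D5:**
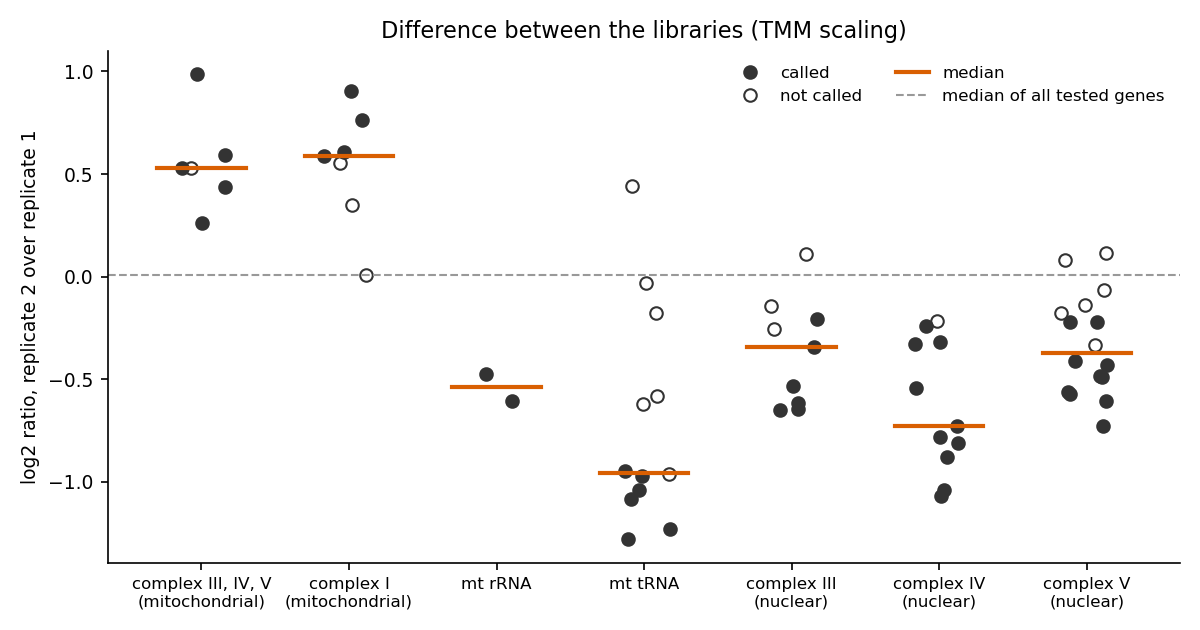
Log2 ratio of replicate 2 over replicate 1 after TMM scaling for each tested gene of the mitochondrial and nuclear lists; filled points were called by the exact binomial test, open points were not, and orange bars are list medians. The 6 genes of complexes III, IV and V lie between 0.26 and 0.99, while the rRNAs lie at -0.61 and -0.47.

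Factors that build these complexes or express the mitochondrial genome were counted in the same way. Of 25 assembly factors, 4 were called and lower in replicate 2, beside 11.5% of all genes tested, and none was called and higher (1 had an unadjusted p under 0.05 in that direction), with a median log2 ratio of -0.21. The largest called differences were those of Cox11, a copper chaperone of complex IV, at -1.01, and Cox14, an early complex IV assembly factor, at -0.92. The highest level was that of Uqcc2, which stabilises newly made cytochrome b, at 184 ± 2.64 CPM per kilobase (SD, n = 2). Of 21 factors for mitochondrial transcription, RNA stability and translation, none was called by the exact binomial test, beside 17.4% of all genes tested (1 had an unadjusted p under 0.05), nor by edgeR's exact test, and the median was 0.17. Those with the highest CPM were Lrpprc, which stabilises mitochondrial mRNAs, at 123 ± 1.33 CPM, and the elongation factor Tufm at 116 ± 1.45 CPM (SD, n = 2).

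The genes nearest to each member in level were found by Euclidean distance in log2 level over both libraries, among 13289 coding genes outside the mitochondrial genome. The nearest was Rps27a for both mt-Co2 and mt-Co3, at distances of 0.106 and 0.107. It was Hnrnpk for mt-Cytb (0.223), Gnb2 for mt-Co1 (0.225), Rps27l for mt-Atp6 (0.151) and Dync1i2 for mt-Atp8 (0.123). Within the mitochondrial genome, mt-Co2 and mt-Co3 were each other's nearest, at 0.102. With 2 libraries this likeness describes levels alone. It rests on the counts as deposited, and no distance was computed with pseudogene counts added to mt-Co2, mt-Co3 and mt-Atp6.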

How the data were processed

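Frozen brains were lysed and polysome fractions pooled, treated with RNase I and size-selected to 25 to 35 nucleotides, per the labels' protocols. The authors' deposited table holds raw counts, 1 row for each transcript and 1 column for each replicate. Trimmomatic 0.36, Bowtie2 2.2.6, SAMtools and build GRCm38.p4 are named in the submitters' processing notes; their roles, the annotation, and the treatment of strand, duplicates and multiple matches are not given in the sources used here. Annotated lengths, an other unit in nucleotides, are as deposited per the file headers. RefSeq coordinates are of GRCm38.p6; 37 of 37 mitochondrial transcripts have RefSeq's lengths.

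Transcript counts were summed per gene. Level per length is CPM per kilobase of the transcript with the highest count. Replicates were compared by an exact binomial test, two-sided, on TMM effective library sizes (edgeR 4.0.16, factors 0.957 and 1.045), with Benjamini-Hochberg adjustment over genes whose counts averaged 10 or more. A quasi-likelihood contrast could not be fitted with 1 group. Log2 ratios used a prior of 0.5 CPM. On simulated counts with 200 genes changed by 1 on the log2 scale, 98% were recovered and 5 unchanged genes were called. Because the binomial test covers counting noise alone, this cannot tell how many calls between the real libraries reflect variation between animals. In the real pair 17.4% of tested genes were called. DESeq2 1.42.0 supplied alternative size factors. Members and lists were chosen with earlier results of these data known. All members are named; other genes are the highest, the lowest or the most different of each list. No sequence was printed, because no table used here holds a sequence of these genes.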

Additional observations from a re-analysis of the deposited data

How the results depend on the processing

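Adding Gm29216 and dividing by coding length were alternatives added after seeing the data. The log2 ratio of each of the 6 genes stayed above 0 under the 6 alternatives that can change it (scaling, prior, pseudogenes and coding transcripts), from 0.26 for mt-Co1 to 1.18 for mt-Atp6. The number called was 5 or 6 except with edgeR's exact test, which called 0. By the exact binomial test, mt-Atp8 was called with library totals, a mean count of at least 100 (adjusted p = 0.0465) and coding transcripts alone (0.04999). In these settings 11.5%, 11.2% and 6.46% of all genes tested were called and higher in replicate 2. That share was 5.78% with DESeq2 size factors, 3.24% over all genes with a count, 5.92% with pseudogene counts added and 0.067% with edgeR's exact test. The share of footprints, 0.166%, was 0.220% of coding transcripts and 0.313% per nucleotide, which follows from the denominators. Pseudogene counts moved mt-Co2 over mt-Co1 from 0.452 to 0.917, mt-Co3 over mt-Co1 from 0.433 to 0.859, mt-Atp8 over mt-Atp6 from 2.38 to 1.25 and the complex IV ratio to nuclear subunits from 0.881 to 1.77. With Gm29216 as well, the ratios to mt-Co1 were 0.747, 0.699 and, for mt-Cytb, 0.564. Counting coding transcripts alone moved the complex III ratio from 2.06 to 3.27 and the complex V ratio from 0.401 to 0.615. Dividing the counts of nuclear coding transcripts by their coding length gave 1.69 for complex III and 0.335 for complex V. The cause was not tested. Leaving out 1 replicate gives the other's values, stated above, and leaves no test between libraries. No paired analysis was possible because the samples form 1 group. With 52 and 63 footprints in replicate 1, mt-Atp8 and mt-Atp6 are the least precise.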
